A study of Mus musculus with 13 samples.

Results

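The nuclear genes of the mitochondrial respiratory chain were followed in the colon and ileum of mice with and without oral vancomycin. Members were the genes whose symbol on the array begins with Ndufa, Ndufb, Ndufc, Ndufs, Ndufv, Uqcr, Cox4, Cox5, Cox6, Cox7, Cox8 or Atp5, and no expression value was used to choose them. These prefixes gave 89 genes, each with 1 probe set, among 19505 genes with a named probe set. Complex I held 44 members, which were 6 core subunits, 30 accessory subunits and 8 assembly factors (the Ndufaf genes). Complex III held 8 members, complex IV 20 and complex V 17. Ndufa4, named for complex I, was placed in complex IV, where its protein is now assigned, and Ndufb4b, a near copy of Ndufb4, was kept although their probes may share signal. With the assembly factors, the supercomplex factor Cox7a2l and the Ndufa4 paralogue Ndufa4l2 set aside, 79 members encode subunits. The 13 mitochondrially encoded subunits were not analysed here.

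Complex I takes electrons from NADH, complex III passes them from ubiquinol to cytochrome c, and complex IV hands them to oxygen. These steps pump protons across the inner mitochondrial membrane, and complex V, the ATP synthase, uses the gradient to make ATP. In the gut epithelium the chain has been studied because colonocytes oxidise butyrate, a short-chain fatty acid released by bacteria, in their mitochondria.

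All mice were FVB females bearing a mammary carcinoma that expresses human HER2, so the untreated groups carried the tumour too. Treated mice received vancomycin, an antibiotic that acts mainly on Gram-positive bacteria, at 200 mg/L in their water from 4 weeks of age, and the experiment ended at 9 weeks, with tumours of 150 mm3. Whether those weeks count age or treatment is not stated. Each of the 13 Affymetrix arrays was hybridised with RNA from a whole piece of gut: 4 from colon without antibiotic (replicates 1, 2, 3 and 5), 3 from colon with vancomycin (11, 13 and 14), 3 from ileum without antibiotic (1, 2 and 3) and 3 from ileum with vancomycin (11, 13 and 14). Values are log2 expression, on which a step of 1 is nominally a doubling, and a difference is given with its standard error (SE). A gene was called changed when its limma p-value, adjusted by Benjamini-Hochberg over all 19572 named probe sets, was below 0.05. The labels do not say that the arrays of a group came from separate mice, so p-values measure only the spread between these samples, which may be technical. In whole tissue, fewer cells of a type and less RNA per cell cannot be told apart.

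The tissues matched their labels: 5 of 5 matched colon epithelial markers were called higher in colon and 8 of 8 ileal enterocyte markers were called higher in ileum. Among the ilea, replicate 11 with vancomycin differed from the rest in its cell type markers. Its mean over 10 smooth muscle markers was 14.64, against 12.97 to 13.64 in the other 5 ilea, and its mean over the B cell markers was 10.22, against 7.51 to 8.19. Its epithelial marker mean was 14.71, against 15.21 to 15.28 in the others. Results that rest on this array are given with and without it.

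Most members were among the brightest probe sets. Their means over the arrays ran from 4.34 for Ndufa4l2 to 17.62 for Cox7c, a small complex IV subunit, with a median of 14.67. In all, 79 of the 89 lay in the brightest tercile of named probe sets, 7 in the middle tercile and 3 in the dimmest. The mean of 20 members exceeded 16, the limit of a 16-bit scan, where the deposited scale may not follow RNA amounts evenly. At the other end, 6 members had means below the negative control median of 8.06: Ndufa4l2, Cox7b2, Cox8b, Ndufaf1, Cox6a2 and Cox4i2. Another 15 were below the controls' 95th percentile of 12.21, for 21 in all, so the presence of all 21 in the tissue is not asserted. In complex I, the 15 include Ndufs1, Ndufs7, Ndufa7, Ndufaf2, Ndufaf3, Ndufaf4, Ndufaf5, Ndufaf6, Ndufaf7 and Ndufaf8. The rest are Uqcrc2, Cox6b2, Cox8c, Atp5c1 and Atp5g2. Several of these are described below.

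Within groups the members varied little. The median residual SD of a member was 0.16, against 0.24 for all named probe sets. The lowest spread was in subunits of complexes IV and III whose means lay above 16, where a low spread may not reflect steady RNA amounts, with a residual SD of 0.04 for Cox5b and Cox7c and 0.05 for Uqcr10. Cox6b2, an isoform known from testis, was the most variable at 0.69, followed by Ndufs7 at 0.44.

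**Figure D1:**
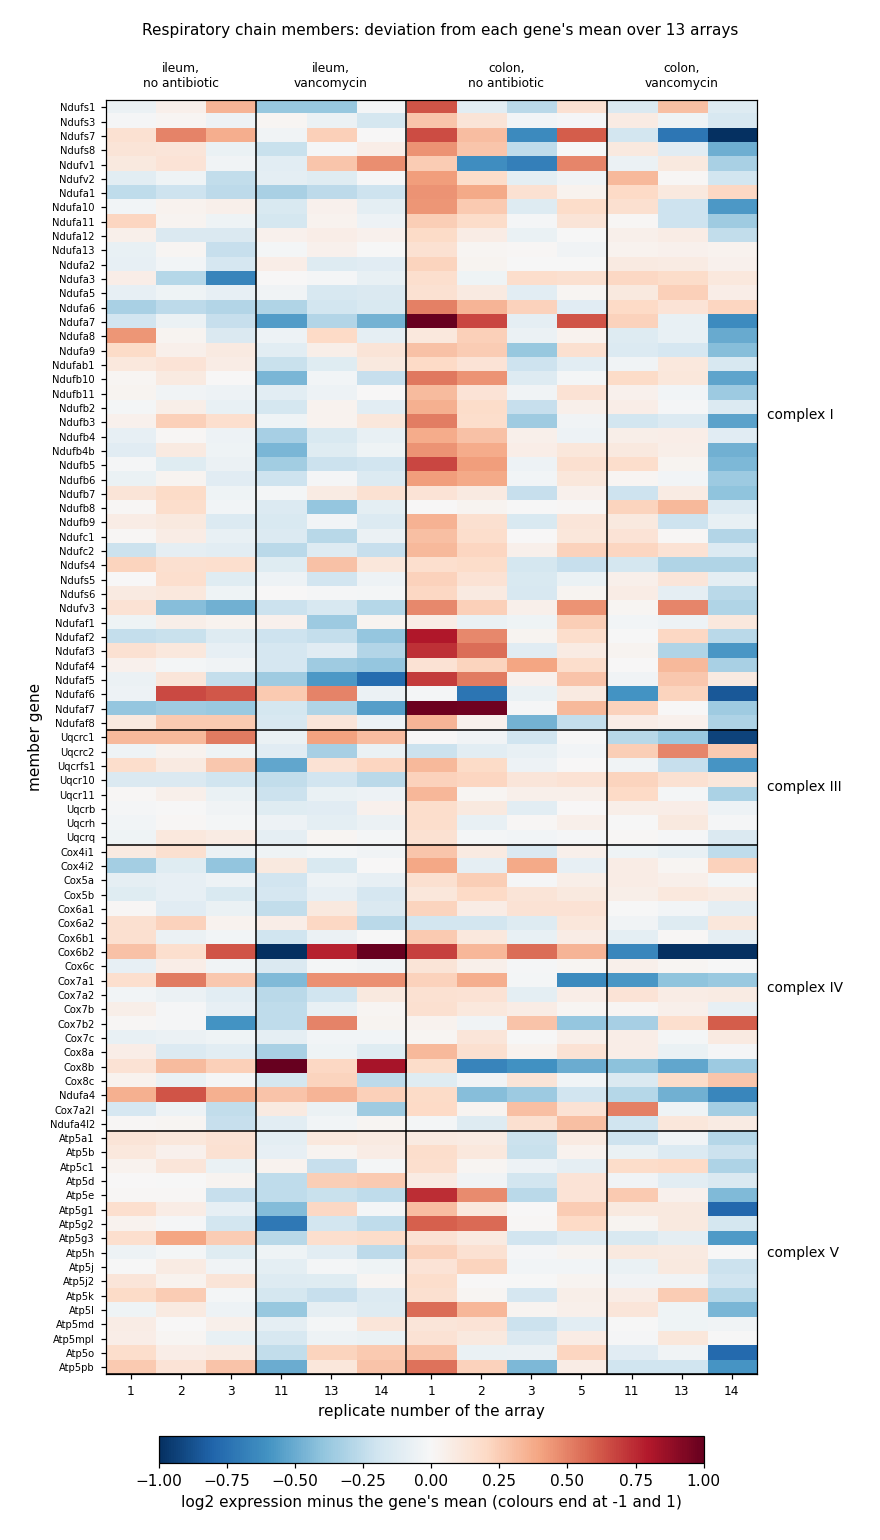
Each row is 1 of the 89 members and each column 1 of the 13 arrays, and the colour is the array's log2 expression minus the gene's mean over all arrays, with the scale ending at -1 and 1. Rows are ordered by complex; replicate 1 of the untreated colon is mostly red (median deviation of all members 0.23) and replicate 14 of the vancomycin colon mostly blue (-0.22).

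Upstream sequences were examined for letters that regulators of respiratory genes are known to bind. NRF1, GABPA (an ETS factor) and ESRRA are transcription factors that, with the coactivators PGC-1alpha and PGC-1beta, act on many nuclear genes of the chain, and YY1 is a further such factor. RefSeq (GRCm38.p6) had a promoter window for 74 of the 89 members, 79 windows in all, each running from 250 bases before to 50 bases after a start. On either strand, GCGCA, any base and GCGC in a row (NRF1) stood in 22.8% of the member windows and 4.6% of all 32851 windows. CCGGAAG (GABPA) stood in 21.5% against 8.86%, AAGGTCA (ESRRA) in 8.86% against 4.72%, and AAGATGG (YY1) in 15.2% against 6.34%. In the 250 bases before the start alone the YY1 letters stood in 1.27% of member windows and 4.49% of all windows, so nearly all their matches in members lay at or after the start. A match is a description of letters and does not show binding.

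The window with the most kinds of match before the start is printed for each complex, to show how the letters recur in genes of different complexes. Matches are in capitals, no printed matches overlap, and each stretch is the 250 bases before the start, 5′ to 3′ on the gene's strand, in GRCm38.p6. Ndufb4, a complex I accessory subunit (chr16:37654369-37654618, minus strand), has 3 NRF1 matches and 1 ESRRA match. Uqcr11, a small complex III subunit (chr10:80406822-80407071, minus strand), has 1 GABPA match. Cox6a1, the widely expressed form of a complex IV subunit (chr5:115348959-115349208, minus strand), has 2 NRF1 matches and 1 GABPA match. Atp5h, a stalk subunit of complex V (chr11:115419920-115420169, minus strand), has 1 of each.
Ndufb4: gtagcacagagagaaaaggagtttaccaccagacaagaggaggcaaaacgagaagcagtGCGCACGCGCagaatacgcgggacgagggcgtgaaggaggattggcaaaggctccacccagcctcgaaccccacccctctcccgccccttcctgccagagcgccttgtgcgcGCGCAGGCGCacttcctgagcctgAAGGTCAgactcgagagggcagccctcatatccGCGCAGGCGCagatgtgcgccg
Uqcr11: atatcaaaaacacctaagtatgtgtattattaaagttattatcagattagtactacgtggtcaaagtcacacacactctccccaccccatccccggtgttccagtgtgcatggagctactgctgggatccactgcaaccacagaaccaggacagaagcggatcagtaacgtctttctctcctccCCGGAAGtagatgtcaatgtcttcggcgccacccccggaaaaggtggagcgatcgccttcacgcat
Cox6a1: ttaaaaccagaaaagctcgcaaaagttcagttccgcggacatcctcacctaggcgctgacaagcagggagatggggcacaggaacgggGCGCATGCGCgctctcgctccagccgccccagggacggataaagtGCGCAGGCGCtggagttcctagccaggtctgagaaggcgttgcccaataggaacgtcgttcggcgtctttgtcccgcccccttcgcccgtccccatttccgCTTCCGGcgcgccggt
Atp5h: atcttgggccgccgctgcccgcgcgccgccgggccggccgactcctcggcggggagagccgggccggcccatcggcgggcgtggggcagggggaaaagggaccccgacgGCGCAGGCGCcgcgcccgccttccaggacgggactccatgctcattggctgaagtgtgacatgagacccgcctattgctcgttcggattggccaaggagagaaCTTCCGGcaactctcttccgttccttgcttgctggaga
Ndufa4 (chr6:11907451-11907700, minus strand) and Uqcr10 (chr11:4704345-4704594, minus strand) are shown because they were called between the tissues with and without antibiotic. Ndufa1, also called in both, is not printed. None of the 4 sets of letters is in the Ndufa4 and Uqcr10 windows. Over whole windows, the NRF1 letters stand in Ndufa6, Ndufaf5 and Uqcrc1, which were also called between the tissues. The other members called between the tissues had no match or no window.
Ndufa4: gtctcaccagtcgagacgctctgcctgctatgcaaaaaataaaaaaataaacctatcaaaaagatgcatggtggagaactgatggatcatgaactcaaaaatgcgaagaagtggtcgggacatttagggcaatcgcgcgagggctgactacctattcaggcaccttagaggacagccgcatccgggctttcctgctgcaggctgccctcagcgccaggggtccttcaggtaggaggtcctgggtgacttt
Uqcr10: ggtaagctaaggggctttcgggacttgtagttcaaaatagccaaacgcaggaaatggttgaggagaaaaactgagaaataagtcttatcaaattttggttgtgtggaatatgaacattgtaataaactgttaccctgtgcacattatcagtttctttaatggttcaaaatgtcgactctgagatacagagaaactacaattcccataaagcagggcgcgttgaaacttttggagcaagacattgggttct

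Colon and ileum without antibiotic were compared as the baseline. In all, 7 of 89 members were called (7.87%), a smaller share than the 20.5% of all named probe sets. Of these, 6 were higher in colon, where 11% of all probe sets were called, and 1 was lower, against 9.59%. The members' median difference, colon minus ileum, was 0.10, and 58 had the higher mean in colon. The median was 0.05 with arrays re-centred, 0.04 without replicate 1 of the untreated colon and 0.05 without replicate 3 of the untreated ileum. Of the 7, 5 belong to complex I (3 accessory subunits and 2 assembly factors), 1 to complex III and 1 to complex IV, with none in complex V, where 1 of 17 had an unadjusted p below 0.05 in limma. The values did not overlap between the tissues for 19 members, against 32.2% of all probe sets.

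Ndufa4, a subunit of complex IV, was the member lower in colon. It read 15.6, 14.99, 15.05 and 15.22 in the untreated colons and 15.77, 16.04 and 15.77 in the untreated ilea. Every ileum exceeded every colon, and the difference of -0.65 ± 0.16 (SE, 4 against 3 arrays) was a 1.56-fold lower value in colon (adjusted p = 0.00947, limma). With vancomycin the colons read 15.13, 14.93 and 14.76 and the ilea 15.7, 15.75 and 15.65. The groups again did not overlap, at -0.76 ± 0.17 (adjusted p = 0.0067). Without replicate 2 of the untreated ileum, the highest of all arrays, the baseline difference was -0.56 and its adjusted p 0.0572. The paralogue Ndufa4l2 differed by 0.14 ± 0.14 (adjusted p = 0.563) at a level near the bottom of the scale.

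Among the subunits of complex I, Ndufa1, a small membrane subunit required for assembly, was higher in colon. Its values were 16.94, 16.87, 16.65 and 16.53 in untreated colons and 16.24, 16.29 and 16.23 in untreated ilea. The lowest colon lay above the highest ileum, by a difference of 0.49 ± 0.13 (adjusted p = 0.0117). With vancomycin it read 16.69, 16.59 and 16.7 in colon and 16.17, 16.23 and 16.29 in ileum, a difference of 0.43 ± 0.13 (adjusted p = 0.0456), which lost its call without any 1 of these 6 arrays (adjusted p 0.073 to 0.117). Ndufa6, an accessory subunit of the LYR family, read 14.04, 13.87, 13.76 and 13.42 in untreated colon and 13.21, 13.27 and 13.24 in untreated ileum. Its groups did not overlap either, with a difference of 0.53 ± 0.14 (adjusted p = 0.0149) that missed the threshold without replicate 1 (0.0546) or 3 (0.0511) of the untreated ileum. Ndufa7, a further accessory subunit, was called at 0.73 ± 0.24 (adjusted p = 0.047), although 1 untreated colon at 9.99 lay below the highest ileum at 10.02. That call was kept only when this colon, replicate 3, was left out, and the adjusted p reached 0.14 without others.

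Of the 8 assembly factors of complex I, 6 had a higher mean in untreated colon than in untreated ileum. Ndufaf6 and Ndufaf8 had lower ones, at -0.59 ± 0.27 and -0.29 ± 0.18, neither called (adjusted p = 0.16 and 0.319, limma). The largest baseline difference of all members was in 1 assembly factor. Ndufaf7, a methyltransferase needed for complex I assembly, read 11.57, 11.56, 10.58 and 10.91 in untreated colon and 10.2, 10.23 and 10.22 in untreated ileum. The untreated colons spread widely, with 2 near 11.6 and 2 lower, yet all exceeded the ilea, by 0.94 ± 0.23 or 1.92-fold (adjusted p = 0.00855). With vancomycin the colons read 10.82, 10.59 and 10.23 and the ilea 10.41, 10.29 and 10.04, and these overlap, with a difference of 0.30 ± 0.24 (adjusted p = 0.485). The change of this difference with vancomycin, -0.64 ± 0.33, was not called (adjusted p = 0.681). Ndufaf2, an assembly chaperone, was 0.57 ± 0.18 higher in untreated colon (adjusted p = 0.0359) without overlap, and the call was lost on leaving out any array but replicates 3 and 5 of the untreated colon (adjusted p up to 0.107).

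**Figure D2:**
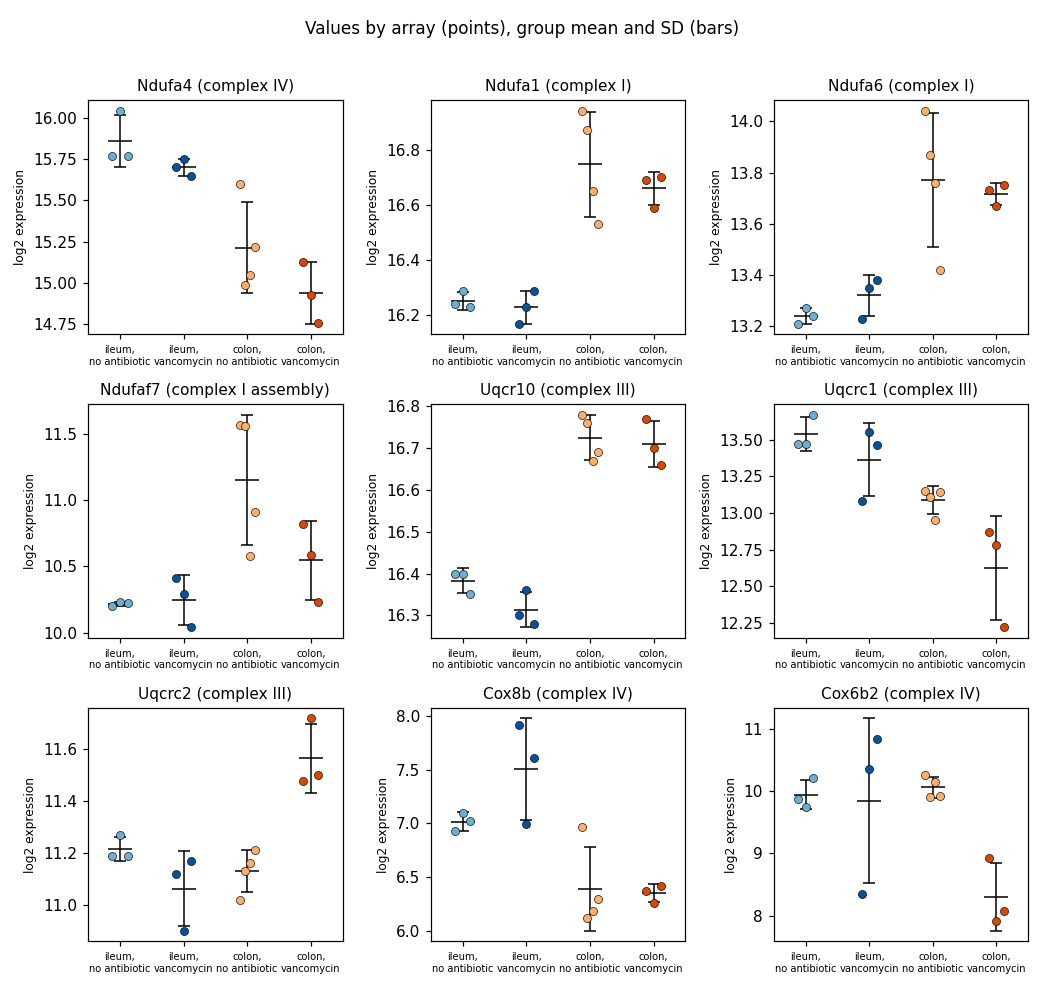
Points are the log2 expression of 9 members on each array (each panel has its own y axis), grouped by tissue and treatment on the x axis, with long bars for the group mean and short bars for the SD. Ndufa4 lies lower and Ndufa1 and Uqcr10 higher in both colon groups than in both ileum groups, while the vancomycin ilea of Cox6b2 run from 8.35 to 10.84.

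In complex III the small subunit Uqcr10 was called higher in colon by a small but even margin. It read 16.78, 16.76, 16.67 and 16.69 in untreated colon and 16.4, 16.4 and 16.35 in untreated ileum. The difference of 0.34 ± 0.11 (adjusted p = 0.0357) and that with vancomycin of 0.40 ± 0.11 (adjusted p = 0.0298) both had no overlap. Both lie near the threshold: the first was lost on leaving out any array but replicate 3 of the untreated colon (adjusted p up to 0.117), and the second on leaving out any 1 of the 6 arrays (0.0512 to 0.0927). Re-centring the arrays also lost both (0.115 and 0.0545). Uqcrc1, a core subunit, had the opposite sign. Its values were 13.15, 13.11, 12.95 and 13.14 in untreated colon and 13.47, 13.47 and 13.67 in untreated ileum, a difference of -0.45 ± 0.17 (adjusted p = 0.0797). It was therefore not called at baseline, though the tissues did not overlap.

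Under vancomycin, 8 members were called between the tissues (8.99%), against 15.1% of all probe sets, with 4 higher in colon (7.45% of all) and 4 lower (7.67% of all). These were Ndufa1, Ndufaf5, Uqcr10 and Uqcrc2 in the higher direction and Ndufa4, Uqcrc1, Cox8b and Cox6b2 in the lower. Groups did not overlap for 22 members, against 27.4% of all probe sets. Ndufa4, Ndufa1 and Uqcr10 were called both with and without vancomycin. The labels do not say that equal replicate numbers pair the treated colons and ilea, and correlations between them did not settle it. With the replicate number as a block in limma, 4 of the 8 calls were kept: Cox8b (adjusted p = 0.00917), Ndufa4 (0.024), Ndufaf5 (0.0276) and Uqcrc1 (0.0389). Uqcrc2 (0.0593), Ndufa1 (0.0734), Uqcr10 (0.0831) and Cox6b2 (0.0878) then missed the threshold. Scaling bore on the split: with arrays re-centred on their medians the calls were 3 higher and 2 lower at baseline and 2 higher and 4 lower under vancomycin, and with arrays quantile-normalised again 10 and 2, and 7 and 3. The count under vancomycin was 4 without replicate 13 or 14 of the vancomycin colon or replicate 14 of the vancomycin ileum, and 2 without replicate 13 of the vancomycin ileum. The baseline count was 3 without replicate 2 or 3 of the untreated ileum. For these refits the share of all probe sets called is not given, so the changed counts cannot be read as particular to the members.

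Under vancomycin the core subunits of complex III differed between the tissues in opposite directions. Uqcrc1 read 12.87, 12.78 and 12.22 in colon and 13.08, 13.55 and 13.46 in ileum, with each colon below each ileum and a difference of -0.74 ± 0.18 (adjusted p = 0.0115). Uqcrc2 read 11.48, 11.72 and 11.5 in colon and 11.12, 10.9 and 11.17 in ileum, with each colon above each ileum and a difference of 0.50 ± 0.13 (adjusted p = 0.0164). Uqcrc1 lost its call without replicate 14 of the colon (0.0538) or 13 of the ileum (0.0599), and Uqcrc2 without replicate 13 of either tissue (0.0753 and 0.084).

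Ndufaf5, an assembly factor that hydroxylates the Ndufs7 protein, read 9.45, 9.76 and 9.58 in vancomycin colon and 9.13, 8.91 and 8.72 in vancomycin ileum. The colons were higher without overlap, by 0.68 ± 0.18 (adjusted p = 0.0216, and up to 0.0937 with 1 array left out, when 4 of 6 such fits lost the call). Cox8b, the rodent isoform known from muscle and brown fat, read 6.37, 6.26 and 6.42 in vancomycin colon and 7.92, 6.99 and 7.61 in vancomycin ileum. It was 2.23-fold lower in colon (-1.16 ± 0.24, adjusted p = 0.00401), a call kept on leaving out each array in turn, on a probe set dimmer than the negative control median. Of the adipocyte markers, 6 of 7 were also called lower in colon under vancomycin, against 7.67% of all probe sets. The other, Ucp1, stood at 0.15 under vancomycin and at 0.05 without antibiotic, and so was not lower in colon. The list mean was 10.91, 9.66 and 11.02 in the same 3 ilea and 6.99 to 8.42 in the vancomycin colons. Without antibiotic 6 of 7 were called lower too (9.59% of all), where Cox8b was not called (adjusted p = 0.065, limma). With vancomycin in ileum 1 of the 7 had a lower mean, Ucp1 at -0.23, while Cox8b stood at 0.49. In the skeletal muscle list 1 of 9 was called lower in colon, and its means ran from 6.23 to 6.60 over all arrays. The part of adipocyte RNA in the Cox8b difference was not tested. Cox6b2 was called at -1.54 ± 0.47 (adjusted p = 0.0391), but the groups overlapped, with 8.35 in replicate 11 of the ileum below the highest colon at 8.93. Without that replicate the difference was -2.29, and without replicate 14 of the ileum it was -1.04 (adjusted p = 0.173). The call was lost in 4 of 6 such fits and after repeated quantile normalisation (0.0509).

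The next comparison asked how vancomycin changed the members in the ileum, and no member was called in limma. Across all probe sets 0.536% were called. At an unadjusted p below 0.05 there was 1 member, Ndufaf5, against 10.1% of all probe sets. The members leaned low: 73 of 89 had a lower mean with vancomycin, against 46.0% of all probe sets and 59.4% of those in the brightest tercile. The size was small, with a median change of -0.09 (all probe sets 0.02, brightest tercile -0.06) and a range from -0.51 to 0.49. The 95% confidence interval lay within 1 log2 unit of 0 for 87 members (97.8%), against 87.6% of all probe sets and 85.2% of the brightest tercile. On the array scale a doubling or halving is thus outside the interval of nearly all members. For members above 16 or below the negative control median, this need not hold for RNA amounts. Groups did not overlap for 14 members, all lower, against 16.9% of all probe sets in either direction. In the lower direction alone this held for 1633 of all 19572 probe sets. Within the brightest tercile it held for 867 of 6523 probe sets and for 12 of the 79 members there.

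The lean in the ileum was smaller without replicate 11. Median deviations of all members from their own means over the 13 arrays were 0.01, 0.03 and -0.05 in the untreated ilea and -0.16, -0.04 and -0.05 in the vancomycin ilea. Without replicate 11 the median change was -0.05 and 65 of 89 were lower. With quantile normalisation repeated it was -0.04, with 62 lower. This array also had the smooth muscle, B cell and epithelial marker values given above. Over the group, 10 of 10 smooth muscle markers had a higher mean with vancomycin (median 0.78) and 5 of 5 proliferation markers a lower one (median -0.61), none called. Proliferation means were 10.83 to 11.09 in the untreated and 9.86 to 10.65 in the treated ilea, without overlap. The part of these cells in the members' values was not tested.

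By complex, the median change in the ileum was -0.09 for complex I, -0.10 for complex III, -0.05 for complex IV and -0.10 for complex V. The mean was lower for 35 of 44, 8 of 8, 14 of 20 and 16 of 17 members. Ndufaf5 had the smallest p: 9.43, 9.61 and 9.25 without antibiotic and 9.13, 8.91 and 8.72 with it. All treated ilea lay below all untreated ones, at -0.51 ± 0.18 (adjusted p = 0.351). Ndufaf4, a further complex I assembly factor, stood at -0.30 ± 0.16 (adjusted p = 0.547), also without overlap. In complex III, Uqcrc2 stood at -0.15 ± 0.13 (adjusted p = 0.72) and the Rieske iron-sulfur protein gene Uqcrfs1 at -0.23 ± 0.20 (adjusted p = 0.724). The latter rested on replicate 11, at 12.85 against 13.51 and 13.58 in the other treated ilea, and was 0.00 without it.

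In complex V, Atp5k, subunit e at the dimer interface, read 14.06, 14.12 and 13.85 without and 13.69, 13.64 and 13.73 with vancomycin, without overlap, at -0.32 ± 0.16 (adjusted p = 0.509). Atp5g2, 1 of 3 genes for the same c subunit of the proton-driven ring, stood at -0.33 ± 0.19 (adjusted p = 0.577), and at -0.17 (adjusted p up to 0.832 over the arrays left out) without replicate 11. In complex IV, Cox8b and the lung-type isoform Cox4i2 had higher means, at 0.49 ± 0.24 and 0.27 ± 0.17 (adjusted p = 0.514 and 0.606), both on dim probe sets. Cox8b read 6.93, 7.1 and 7.02 without and 7.92, 6.99 and 7.61 with vancomycin, so the groups overlap, and the change was 0.28 without replicate 11.

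**Figure D3:**
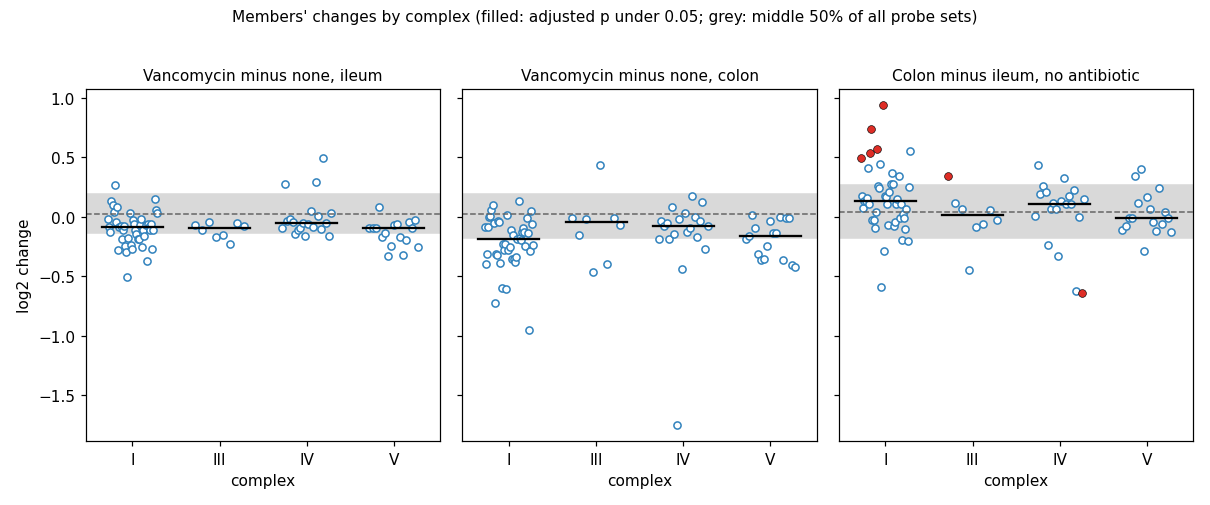
Each point is a member's log2 change (y axis) in 1 of 3 comparisons, by complex on the x axis, with filled points for an adjusted p below 0.05, black bars for the complex medians, and a grey band and dashed line for the middle 50% and the median of all named probe sets. No point is filled for vancomycin in ileum or colon and 7 are filled for colon against ileum; Cox6b2 is the lowest point in the colon panel at -1.75.

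In the colon, too, no member was called with vancomycin, where 0.0102% of all probe sets were. At an unadjusted p below 0.05 limma gave 12 members, 11 lower and 1 higher (13.5%, against 15.9% of all probe sets). The mean was lower for 77 of 89 members, against 47.0% of all probe sets and 61.2% of the brightest tercile. The median change was -0.14 (all probe sets 0.02, brightest tercile -0.09), and the interval lay within 1 log2 unit of 0 for 84 members. Only 6 members had no overlap between the groups, against 12.3% of all probe sets: Atp5j2, Cox6a1, Cox6b2, Ndufa8 and Uqcrc1 lower and Uqcrc2 higher.

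The lean in the colon also moved with single arrays. Median deviations of all members were 0.23, 0.14, -0.05 and 0.05 in the untreated colons and 0.03, 0.02 and -0.22 in the treated ones, so the groups overlapped and replicates 1 and 14 were the extremes. Without replicate 14 of the vancomycin colon the median change was -0.07 and 68 of 89 were lower, and without replicate 1 of the untreated colon it was -0.10 and 61 were lower. Without replicate 3 of the untreated colon it was -0.19 and 81 were lower. Quantile normalisation repeated gave -0.07 with 60 lower, and re-centred arrays -0.11 with 67 lower. Epithelial marker means were 14.69 to 14.82 in untreated and 14.49 to 14.63 in vancomycin colons, and B cell means 7.83 to 8.65 and 7.97 to 8.97, with the highest in replicate 14. The proliferation list mean was 10.57 to 11.15 in untreated and 9.95 to 10.91 in vancomycin colons. The part of these cells in the members' values was not tested.

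**Figure D4:**
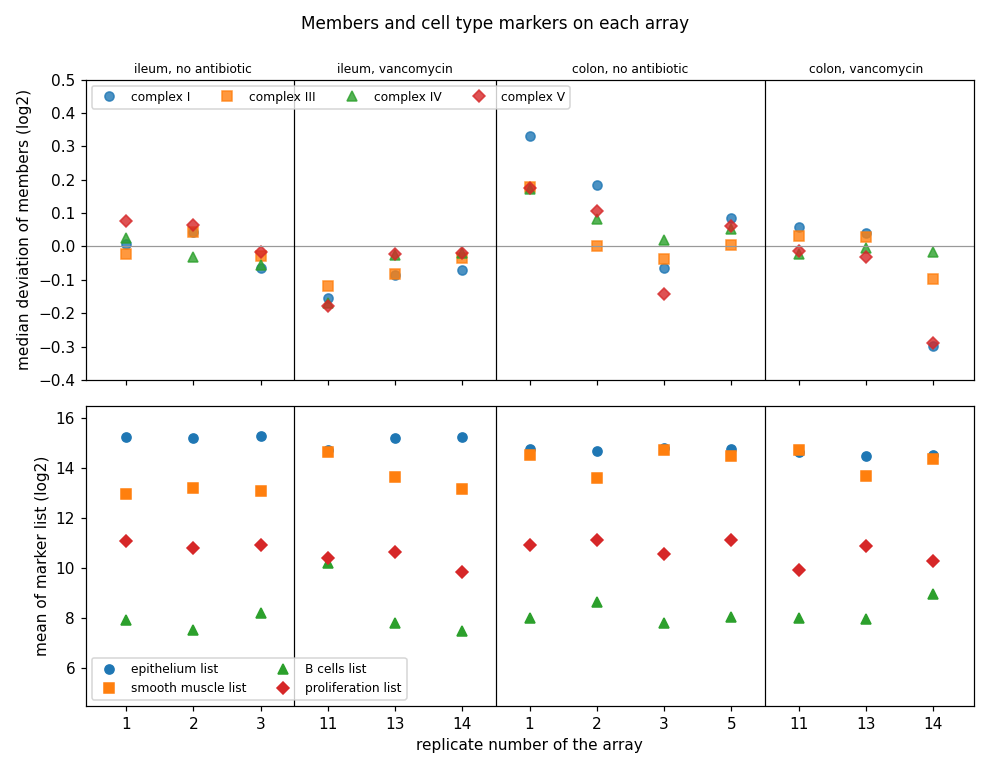
The upper panel gives, for each array on the x axis, the median deviation of the members of each complex from their own means (log2), and the lower panel the mean log2 expression of 4 cell type marker lists on the same arrays. Complex I runs from -0.30 in replicate 14 of the vancomycin colon to 0.33 in replicate 1 of the untreated colon, and replicate 11 of the vancomycin ileum is the ileum with the highest smooth muscle and B cell means.

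Complex I had the lowest median change in colon, at -0.19, with 38 of 44 members lower, against -0.05 for complex III, -0.08 for complex IV and -0.16 for complex V. The 36 subunits of complex I alone had a median of -0.17, near that of complex V, and its 8 assembly factors -0.26. Ndufs7, the core subunit that holds the iron-sulfur cluster next to the ubiquinone site, read 10.55, 10.2, 9.26 and 10.5 without and 9.71, 9.17 and 8.64 with vancomycin. The untreated replicate 3 lay among the treated colons, and the change was -0.95 ± 0.29 (adjusted p = 0.174). Ndufa7 read 11.16, 10.75, 9.99 and 10.71 without and 10.31, 10.01 and 9.45 with vancomycin, at -0.73 ± 0.24 (adjusted p = 0.193), again with replicate 3 inside the treated range. Without that replicate these 2 members were called, Ndufs7 at -1.24 (adjusted p = 0.0423) and Ndufa7 at -0.95 (adjusted p = 0.0478). Without replicate 14 of the vancomycin colon they stood at -0.69 and -0.49. The other 5 core subunits, Ndufs1, Ndufs3, Ndufs8, Ndufv1 and Ndufv2, ran from -0.29 to 0.04.

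In complex III the core subunits again differed in sign. Uqcrc2 was 11.02, 11.13, 11.16 and 11.21 without and 11.48, 11.72 and 11.5 with vancomycin, so every treated colon was higher, by 0.44 ± 0.12 (adjusted p = 0.157). It was the only member with a higher mean and an unadjusted p below 0.05. Uqcrc1 had every treated colon lower, at -0.46 ± 0.17 (adjusted p = 0.222), and at -0.26 without replicate 14.

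In complex IV, Cox6b2 had the largest change of all members. It read 10.26, 9.91, 10.14 and 9.92 without and 8.93, 7.91 and 8.08 with vancomycin, so the treated colons were all lower, 3.37-fold on average (-1.75 ± 0.44, 95% confidence interval -2.69 to -0.81, adjusted p = 0.126). Its probe set lay below the 95th percentile of the negative controls. Cox7a1, the isoform of heart and skeletal muscle, stood at -0.44 ± 0.25 (adjusted p = 0.405) with overlap. In complex V, Atp5l and Atp5o, subunits of the membrane part and the stalk, stood at -0.37 ± 0.17 and -0.40 ± 0.19 (adjusted p = 0.311 and 0.318). Both leaned on replicate 14, without which they stood at -0.20 and -0.17. The 12 genes of the membrane part and stalk all had a lower mean with vancomycin in colon and in ileum.

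Whether vancomycin acted differently in the tissues was tested as an interaction, and no member was called, against 0.189% of all probe sets. At an unadjusted p below 0.05 limma gave 2 members (2.25%), against 8.01% of all probe sets. Uqcrc2 was the first, with a change in colon minus that in ileum of 0.59 ± 0.18 (adjusted p = 0.335): 0.44 in colon and -0.15 in ileum. Cox6b2 was the second, at -1.65 ± 0.64 (adjusted p = 0.506). Its treated ilea read 8.35, 10.35 and 10.84, with replicate 11 the low one, against 9.87, 9.75 and 10.21 untreated. Without replicate 11 the interaction was -2.40 and was called (adjusted p = 0.00882), and without replicate 14 of that group it was -1.16. Ndufb8, a complex I accessory subunit, stood at 0.39 ± 0.20, Atp5k at 0.32 ± 0.21, Atp5o at -0.38 ± 0.28, Uqcrc1 at -0.29 ± 0.25 and Cox8b at -0.53 ± 0.33 (adjusted p 0.676 to 0.825). Without replicate 14 of the vancomycin colon Uqcrc1 stood at -0.09 and Atp5o at -0.14, without replicate 13 of that group Atp5k stood at 0.20, and without replicate 11 of the vancomycin ileum Cox8b stood at -0.32. The median over the members was -0.07, and -0.01 without replicate 14 and -0.13 without replicate 11 of the vancomycin colon. It was -0.02 without replicate 1 and -0.13 without replicate 3 of the untreated colon, and -0.05 without replicate 3 of the untreated ileum and -0.11 without replicate 11 of the vancomycin ileum.

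Weighting the arrays by their fit in limma made calls among these members. In the vancomycin ileum, replicate 11 received the lowest weight of all arrays at 0.302 and replicate 13 the highest at 3.79. Replicate 14 received 0.644, so the weighted values of that group rest mostly on replicate 13. The share of all probe sets called with weights is not given here. With weights, Ndufaf5 was called lower with vancomycin in ileum (-0.54, adjusted p = 0.037) and Cox6b2 in colon (-1.78, adjusted p = 0.0436). The interaction was then called for Uqcrc2 (0.74, adjusted p = 0.0499) and Cox6b2 (-2.14, adjusted p = 0.031).

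Several complex IV subunits and the c subunit of complex V have more than 1 gene. The widely expressed forms had small differences with vancomycin: Cox4i1 stood at -0.09 ± 0.14 in ileum and -0.19 ± 0.13 in colon, and Cox8a by -0.11 ± 0.13 and -0.17 ± 0.12. Cox6a1 stood at -0.04 ± 0.13 and -0.19 ± 0.12, Cox6b1 at -0.11 ± 0.13 and -0.15 ± 0.12, Cox7a2 at -0.06 ± 0.13 and 0.03 ± 0.12, and Cox7b at -0.09 ± 0.12 and -0.10 ± 0.12. Cox5a and Cox5b, which encode different subunits despite their names, stood between -0.08 and -0.02. None of these was called in any comparison, and neither were the tissue-restricted forms Cox4i2, Cox6a2, Cox7a1, Cox7b2 and Cox8c.

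Between tissues without antibiotic, Cox4i2 had a higher mean in colon by 0.43 ± 0.16 (adjusted p = 0.0648) and Cox8b a lower one by -0.63 ± 0.22 (adjusted p = 0.065). Cox4i2 read 7.8, 7.32, 7.79 and 7.33 in untreated colon and 7.07, 7.29 and 7.02 in untreated ileum, without overlap. Cox7a2l, which helps join complexes into supercomplexes, stood at 0.32 ± 0.18 (adjusted p = 0.258), also without overlap. The 3 c subunit genes encode the same mature protein and had differences of 0.12 ± 0.21 for Atp5g1, 0.40 ± 0.18 for Atp5g2 and -0.29 ± 0.16 for Atp5g3, colon minus ileum, none called (adjusted p 0.139 to 0.79). Atp5g3 read 15.99, 15.94, 15.66 and 15.72 in untreated colon and 16.02, 16.24 and 16.1 in untreated ileum, where every ileum was higher.

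Other genes of mitochondrial respiration were taken from lists of related genes. No gene of these lists was called with vancomycin in either tissue or in the interaction. A list of complex II, cytochrome c and Cyc1, a complex III subunit gene that the prefixes do not reach, had 6 of 6 genes measured. Their median change was -0.23 in ileum and -0.10 in colon. Sdha, the flavoprotein of complex II, was the 1 called between untreated tissues, lower in colon by -0.54 ± 0.17 (adjusted p = 0.033). The mitochondrial ribosome, which translates the mitochondrially encoded subunits, had 76 genes, of which 67 had a lower mean with vancomycin in ileum (median -0.17) and 71 in colon (median -0.33). Assembly factors outside the prefixes numbered 40, with medians of -0.15 and -0.11.

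Of 20 regulators of respiratory genes measured, 4 were called higher in untreated colon and 0 lower, a share near the 20.5% of all probe sets called in this comparison. Ppargc1b, which encodes PGC-1beta, was higher by 1.49 ± 0.20 (adjusted p = 0.000102), Ppargc1a, which encodes PGC-1alpha, by 0.99 ± 0.17 (adjusted p = 0.000559), and Esrrg, an oestrogen-related receptor, by 0.99 ± 0.19 (adjusted p = 0.00151). Under vancomycin the same 3 differences were 2.24 ± 0.22, 1.30 ± 0.18 and 1.64 ± 0.20. Among assembly factors outside the prefixes 3 of 40 were called higher in colon and 4 lower, also not above that background, with Higd1a, a factor of complex IV, at 1.43 ± 0.20 (adjusted p = 0.000112) and Sco1, which delivers copper to complex IV, at -0.70 ± 0.17 (adjusted p = 0.00861). In a list of other mitochondrial genes 2 of 22 were called higher, Vdac3 and Ckmt1, and 1 lower, Vdac2, a smaller share than over all probe sets. Smooth muscle markers were also higher in untreated colon, 8 of 10 called, with means of 13.60 to 14.71 against 12.97 to 13.21, and their part in the differences of the regulators and of the members was not tested.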

How the data were processed

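RNA of 13 gut samples, tagged with biotin, was read on Affymetrix arrays with 1 colour, per the labels. The deposited log2 expression values come from RMA, and the submitters' processing notes also name Affymetrix Expression Console 1.4.1.46. RMA is a method that subtracts background, equalises the arrays' distributions and summarises probes, which can compress low values and hide a shift shared by all genes. The table holds 28846 probe sets, of which 19572 have 1 gene symbol in the platform annotation. No source used here names its genome build. No detection calls were used, and the number of arrays limits the precision.

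A model of 4 group means over all 13 arrays (9 residual degrees of freedom) was fitted with lmFit and eBayes in limma 3.58.1 (R 4.3.3) on the whole table, with p-values adjusted by Benjamini-Hochberg. The steps were tested on simulated data. Members and lists were chosen with earlier results of these data known. Named for vancomycin and its difference between tissues were called members and the 2 with the smallest p in each complex, for the tissues the 2 called members per direction and complex with the smallest p, besides all isoform pairs and up to 3 genes per list. Ndufa6, Ndufa7, Ndufaf2, Ndufaf6, Ndufaf8 and the members called between tissues under vancomycin alone were described after their values were seen. Same-numbered colon and ileum samples were checked for deviations from their group means that go together: the correlations were 0.236, 0.176 and 0.107 for the 3 vancomycin pairs, all over 0.1, and 0.0754, 0.0302 and -0.0162 for the untreated pairs. The numbers were therefore taken to pair the treated tissues, from the data and not the labels, and not the untreated ones. By best match within a treatment, 7 of 12 samples went with their own number. These included both samples of untreated replicate 1 but not the ileum of vancomycin replicate 14. The correlations therefore do not settle which numbers pair. Sequence matches were counted in Python 3.11.15. Alternatives were re-centring, repeated quantile normalisation, a filter on dim probe sets, the groups compared alone, array weights, a trended robust prior, probe set averaging, a replicate block, subunits only and leaving out each array.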

Additional observations from a re-analysis of the deposited data

How the results depend on the processing

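Counts are of called members in limma with Benjamini-Hochberg adjustment. The share of all probe sets called under each alternative is not given here. A changed count therefore cannot be read as particular to the members. For colon against ileum without antibiotic, the 7 calls became 12 after repeated quantile normalisation and 15 with array weights. Under vancomycin, the 8 calls became 2 with only those arrays in the fit. For vancomycin, array weights gave 1 call in ileum, 1 in colon and 2 in the interaction, against 0 each; the median changes kept their sign in every alternative run. Leaving out each array gave 0 to 0 calls in ileum, 0 to 2 in colon, 3 to 9 between untreated tissues, 2 to 7 between treated tissues and 0 to 1 for the interaction. The median changes then ran from -0.11 to -0.05, from -0.19 to -0.07, from 0.04 to 0.12, from 0.02 to 0.09 and from -0.13 to -0.01. The cause of these shifts was not tested. No result reversed its sign.

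With the replicate block, 4 members were called between treated tissues (Cox8b, Ndufa4, Ndufaf5 and Uqcrc1) and 5 between untreated tissues, where the numbers were not taken to pair the samples. It gave 0 calls in each vancomycin comparison and in the interaction, as without the block.

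Of 41 results, none had an array that stood apart by Dixon's test in the group of 4. Groups of 3 cannot be tested this way. For members above 16 or below the negative control median, signal limits what can be measured.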
